A study of Oryza sativa Japonica Group with 12 samples.

Results

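The genes described here are 10 rice genes of abscisic acid (ABA) turnover and of the water-stress proteins that ABA induces, among 35833 rows of the deposited table. They were chosen by identifier: the synthesis genes NCED3, NCED4 and NCED5, the breakdown genes ABA8ox1, ABA8ox2 and ABA8ox3, the dehydrin genes RAB16A and RAB16B, the gene LEA3 and the gene SalT. All 10 identifiers were in the table. The table itself pairs no identifier with a name, so the names are those under which the identifiers were listed and no file used here could test them.

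The study profiled roots of the rice cultivar Nipponbare by sequencing mRNA from its 3′ ends, so that reads per gene need no correction for transcript length. Leaves of plants 13 days after transplanting were sprayed with 300 µM piperonylic acid in 0.1% Tween 20, or with the matching mock solution, and roots were taken 24 h or 6 h later. Transplanting is recorded as day 5 for every library. Cinnamate 4-hydroxylase, which acts near the start of the route to lignin and many phenolics, is the known target that piperonylic acid inhibits. The 4 groups were piperonylic acid at 24 h, mock at 24 h, piperonylic acid at 6 h and mock at 6 h, with 3 libraries each and the roots of 4 plants pooled in each library. The series title describes the roots as inoculated with the root-knot nematode Meloidogyne graminicola and the source names speak of a second treatment, but the sample labels state neither an inoculation nor an earlier spray. No untreated group without a mock spray was analysed here, and only 1 dose was used.

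ABA is a hormone that plants make from carotenoids when water is short, and that closes stomata and affects root and shoot growth. NCED enzymes cleave an epoxycarotenoid in the plastid, which is regarded as the rate-limiting step of ABA synthesis, and ABA8ox enzymes are cytochrome P450 hydroxylases that start the main route of ABA breakdown. ABA bound to its receptors inhibits PP2C phosphatases, which frees SnRK2 kinases to activate transcription factors, and genes for dehydrins and other late embryogenesis abundant (LEA) proteins are classical targets of that signal.

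Whole reads could be recovered from the deposited values, and totals were between 6302056 and 10254382 reads in 11 libraries and 20301774 in mock replicate 1 at 24 h. Of the marker genes, 3 of 3 listed for roots had reads in every library, with summed levels of 40780 to 55572 normalised counts at 24 h and 38160 to 53324 at 6 h. All 7 listed for leaves and photosynthesis also had reads in every library. Their summed level at 24 h was 563, 491 and 1454 normalised counts in replicates 1, 2 and 3 of piperonylic acid roots. In mock roots it was 454, 591 and 1503 at that time. At 6 h it was 431 to 634 in piperonylic acid roots and 664 to 1793 in mock roots. The sums did not overlap there, and their part in the 6 h results was not tested. Singly, only Os01g0600900 and Os09g0346500 were separated at 6 h, as were 19.6% of all genes tested. The others overlapped, and 0 of 7 had an unadjusted limma p under 0.05. In roots ground whole, fewer cells of a type and less RNA per cell cannot be told apart. The libraries are pools of plants, and the labels do not say whether they came from separate cultures or days. A p-value here sets a difference between groups against the spread among these libraries, and that spread may be only technical. Levels below are normalised read counts as the authors deposited them unless another scale is named, and replicates are listed in the order 1, 2, 3.

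Among the synthesis genes, NCED5 (Os12g0617400) stood lower in treated than in mock roots at 24 h and higher at 6 h. At 24 h its level was 22.2, 32.3 and 24.8 in piperonylic acid roots, against 44.3, 36.5 and 59.3 in mock roots. At 6 h it was 80.6, 111 and 71.9 in piperonylic acid roots, against 56.0, 59.1 and 28.2 in mock roots. The groups did not overlap at either time, and they were separated in opposite directions, as were those of 1.46% of the 19207 genes tested. Fold changes on the log2 scale were -0.76 ± 0.27 (SE, n = 3 each) at 24 h and 0.90 ± 0.27 at 6 h, with limma adjusted p of 0.659 and 0.106, so neither passed 0.05 over all genes. Without mock replicate 3 the 6 h value was 0.57. Their difference, 24 h minus 6 h, was -1.66 ± 0.39 (SE), for which limma gave an adjusted p of 0.0738. With a replicate block by the numbers in the titles it passed, at a limma adjusted p of 0.0250. That block paired libraries at both times, although the title numbers were not taken to pair them at 24 h. With a block by the numbers in the source names, which differ for 3 treated libraries, the difference was -1.14 at 0.325. Without treated replicate 3 of 6 h it was -1.79 and passed, at 0.0294.

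NCED4 (Os07g0154100), a second dioxygenase gene, was highest in mock roots at 6 h. Its level at 24 h was 5.56, 4.62 and 24.8 in piperonylic acid roots, against 17.1, 29.0 and 17.2 in mock roots. These values overlapped through treated replicate 3, and the low treated values rest on 4 reads each. At 6 h its level was 5.90, 9.95 and 23.3 in piperonylic acid roots, against 34.1, 58.2 and 78.9 in mock roots. All treated libraries lay below all mock libraries at that time, and the highest treated one was again replicate 3. Treated minus mock, the log2 difference was -1.03 ± 0.56 (SE, n = 3 each) at 24 h and -2.07 ± 0.56 at 6 h, with limma adjusted p of 0.851 and 0.0853. With the replicate block by title numbers the 6 h difference passed, at an adjusted p of 0.0248, and it measured -2.19, -2.33 and -1.68 on the log2 scale in the 3 pairs. With the numbers of the source names it was -1.62 at 0.276. Leaving out treated replicate 3 brought the 24 h value to -1.67, and leaving out treated replicate 2 brought it to -0.66. The 6 h difference also passed without treated replicate 3 of 24 h, at 0.0299, and without treated replicate 3 of 6 h, at 0.0202. At 6 h NCED5 and NCED4 therefore stood on opposite sides of mock roots.

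NCED3 (Os03g0645900), the third dioxygenase gene listed, was listed at 0 in all 12 libraries. A count of 0 allows up to 3 reads in a library, and covers counting error only.

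Among the breakdown genes, ABA8ox1 (Os02g0703600) differed most in level between the groups. At 24 h its level was 189, 160.5 and 129 in piperonylic acid roots, against 156, 135 and 123 in mock roots, and these ranges overlapped. Levels at 6 h were 167, 213 and 453 in piperonylic acid roots, against 555, 767 and 923 in mock roots. Every treated library lay below every mock library at 6 h, with treated replicate 3 nearest to them. Its log2 fold change was 0.20 ± 0.35 (SE, n = 3 each) at 24 h, with a 95% interval of -0.59 to 0.98, and -1.53 ± 0.35 at 6 h, with an interval of -2.31 to -0.75. The limma adjusted p was 0.956 and 0.0669, so the 6 h difference missed the threshold over all genes, and with the replicate block by title numbers it passed, at an adjusted p of 0.000228. The block by source-name numbers gave -1.21 at 0.0424. Within the title pairs the difference measured -1.72, -1.84 and -1.02. The effect at 24 h minus that at 6 h was 1.72 ± 0.49 (SE), at a limma adjusted p of 0.206. It was at 0.00188 with the block by title numbers and at 0.0901 with the other. The title block also paired the 24 h libraries, where the title numbers were not taken to pair them. Without treated replicate 3 of 6 h the 6 h effect was -1.95 at an adjusted p of 0.000174, and the difference between the times was 2.14 at 0.00115; neither passed in the refits that left out each of the other 11 libraries.

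ABA8ox2 (Os08g0472800), a second hydroxylase gene, varied less. It had 51.4, 60.04 and 128 normalised counts in piperonylic acid roots and 67.2, 81.9 and 76.5 in mock roots at 24 h. At 6 h ABA8ox2 had 72.8, 39.8 and 44.8 in piperonylic acid roots and 82.8, 50.8 and 50.8 in mock roots. The groups overlapped at both times, and the treated library of 24 h with the highest value was replicate 3. The log2 fold change was -0.03 at 24 h, with a 95% interval of -0.73 to 0.68, and -0.23 at 6 h, with an interval of -0.93 to 0.47.

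ABA8ox3 (Os09g0457100) was close to the detection limit, with 18 reads over the 12 libraries. It had 4, 2 and 3 reads in piperonylic acid roots and 2, 1 and 1 in mock roots at 24 h, and 1, 1 and 0 in piperonylic acid roots and 2, 0 and 1 in mock roots at 6 h. In normalised counts the 24 h groups did not overlap, at 5.56, 2.31 and 3.10 in piperonylic acid roots against 0.975, 1.26 and 0.957 in mock roots. The gene did not reach the mean of 10 normalised counts set for testing. Fitted without that minimum, its log2 fold change at 24 h was 0.85 ± 0.33 (SE) at a limma adjusted p of 0.810, so no treatment difference was called at this depth.

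**Figure D1:**
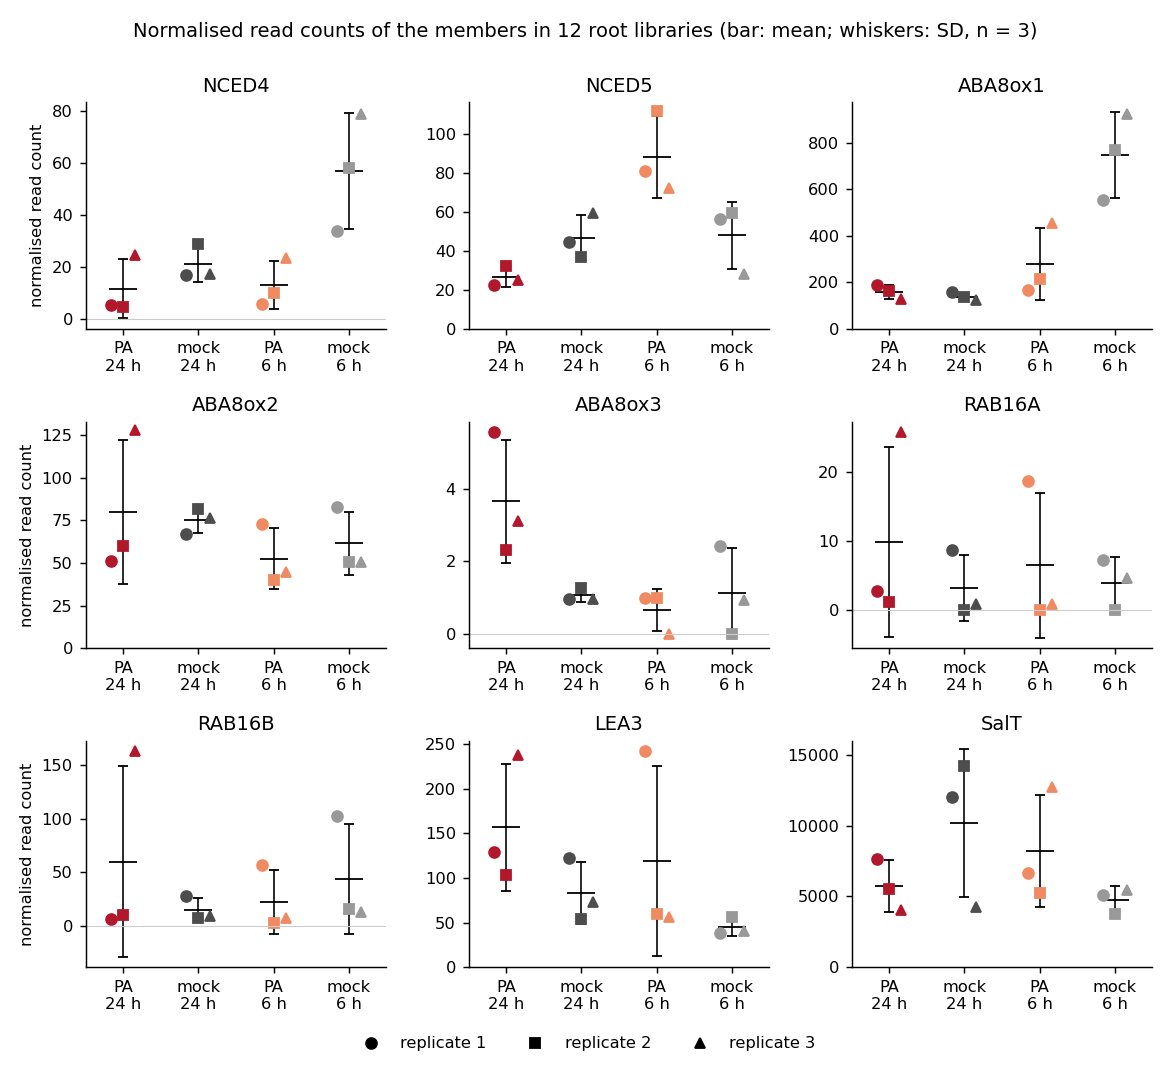
Normalised read count (linear axes that include 0, a different scale in each panel) of the 9 members with reads, in the 3 libraries of each group; horizontal lines are means and whiskers SD (n = 3). At 6 h the mock libraries of ABA8ox1, at 555 to 923, lie above the treated ones, at 167 to 453, while RAB16A, RAB16B and LEA3 have single high libraries in several groups.

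The dehydrin genes RAB16A and RAB16B encode hydrophilic proteins that protect cells losing water. The level of RAB16B (Os11g0454200) at 24 h was 6.95, 10.4 and 162 in piperonylic acid roots, against 28.3, 7.56 and 9.57 in mock roots. RAB16B levels at 6 h were 57.04, 2.99 and 7.47 in piperonylic acid roots, against 102, 15.7 and 13.2 in mock roots. In each of the 4 groups 1 library stood far above the others: replicate 3 of treated roots at 24 h and replicate 1 of the other groups. The highest library of treated roots had 23.4 times the level of the lowest at 24 h and 19.1 times at 6 h, against 3.74 and 7.77 times in mock roots. The log2 fold change was 0.82 at 24 h, with a 95% interval of -2.35 to 3.98, and -1.11 at 6 h, with an interval of -4.27 to 2.05 (limma adjusted p = 0.954 and 0.777). Without treated replicate 3 of 24 h the 24 h value was -0.51, so its direction rests on that library. It was 1.59 without treated replicate 1. When treated replicate 1 of 6 h was left out the 6 h value was -2.14, and when mock replicate 1 was left out it was -0.22; no refit passed.

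RAB16A (Os11g0454300) had 78 reads over the 12 libraries and did not reach the level set for testing. Its level at 24 h was 2.78, 1.15 and 25.9 in piperonylic acid roots, against 8.77, 0 and 0.957 in mock roots. At 6 h RAB16A was at 18.7, 0 and 0.934 in piperonylic acid roots, against 7.31, 0 and 4.70 in mock roots. Its highest library in each group was the one in which RAB16B was highest. RefSeq's table for the assembly ASM3414082v1 places a RAB16B gene beside RAB21, another name of RAB16A, on chromosome 11, with 0 annotated genes between them. Dehydrin genes of this family are alike in sequence, and the counting of reads that match several copies is not given in the sources used here, so the split between both genes is uncertain.

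LEA3 (Os05g0542500) encodes a late embryogenesis abundant protein of another group. Its level at 24 h was 129, 104 and 238 in piperonylic acid roots, against 122, 54.2 and 73.7 in mock roots. LEA3 levels at 6 h were 242, 59.7 and 56.04 in piperonylic acid roots, against 39.0, 56.4 and 40.4 in mock roots. The groups overlapped at both times, and at 6 h the treated mean of 119 ± 106 (SD, n = 3) rested on replicate 1, against 45.2 ± 9.66 (SD, n = 3) in mock roots. Its log2 fold change was 0.89 ± 0.58 (SE) at 24 h and 1.04 ± 0.58 at 6 h, with limma adjusted p of 0.886 and 0.476. Without treated replicate 3 of 24 h the 24 h value was 0.54, and without treated replicate 1 of 6 h the 6 h value was 0.36.

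SalT (Os01g0348900), first described in rice under salt stress, encodes a mannose-binding lectin and not a dehydrin. Its mean over the libraries lay above that of 99.3% of the genes tested. At 24 h it had 7672, 5504 and 4074 normalised counts in piperonylic acid roots, against 11992, 14203 and 4261 in mock roots. SalT had 6659.8, 5274 and 12716 in piperonylic acid roots at 6 h, against 5124, 3736 and 5489.8 in mock roots. The treated mean was the lower one at 24 h and the higher one at 6 h, but the groups overlapped at both times. The log2 fold change was -0.69 ± 0.51 (SE, n = 3 each) and 0.70 ± 0.51, with limma adjusted p of 0.897 and 0.601. Both sizes moved when 1 library was left out, though neither changed sign. The 24 h value was -1.23 without mock replicate 3 and -0.36 without mock replicate 2, and the 6 h value was 0.33 without treated replicate 3. The difference, 24 h minus 6 h, was -1.39 ± 0.72 (SE) at a limma adjusted p of 0.556.

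Of the 10 members 7 reached the level set for testing, and 0 of them passed in piperonylic acid against mock roots at 24 h by limma, edgeR or DESeq2, where limma called 0.115% of all genes. At 6 h 0 of 7 passed by limma and by edgeR and 2 by DESeq2, ABA8ox1 and NCED4, where limma called 1.66% of all genes. By the title numbers the 6 h libraries were taken, from these same values, to be paired. With that replicate block limma also called these 2 of 7, and 1 of 7, ABA8ox1, with the block by source-name numbers. At an unadjusted limma p under 0.05 there was 1 member at 24 h, NCED5, and 3 at 6 h, NCED4, NCED5 and ABA8ox1, against 6.11% and 14.8% of all genes. Groups did not overlap for 1 of the 7 at 24 h and for 3 at 6 h, against 11.8% and 19.6% of all genes. For the difference between the times 0 of 7 passed by limma and by edgeR and 2 by DESeq2, NCED5 and ABA8ox1. The block by title numbers, applied at both times, also called these 2, while 2 had an unadjusted limma p under 0.05. Of all genes limma called 0.552% in that comparison, and 11% had an unadjusted p under 0.05. Of the 7 members 3 had a positive log2 fold change at 24 h and 3 at 6 h, against 48.1% and 51.2% of all genes. The members' medians were -0.03 and -0.23, against medians of -0.0090 and 0.0063 over all genes. At both times members lay on each side of 0. Within the title pairs at 6 h, the log2 difference of treated minus mock roots was 0.38, 0.50 and 1.21 for SalT, -0.82, -1.83 and -0.68 for RAB16B and -0.18, -0.34 and -0.17 for ABA8ox2. These 3 members did not pass with the block.

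**Figure D2:**
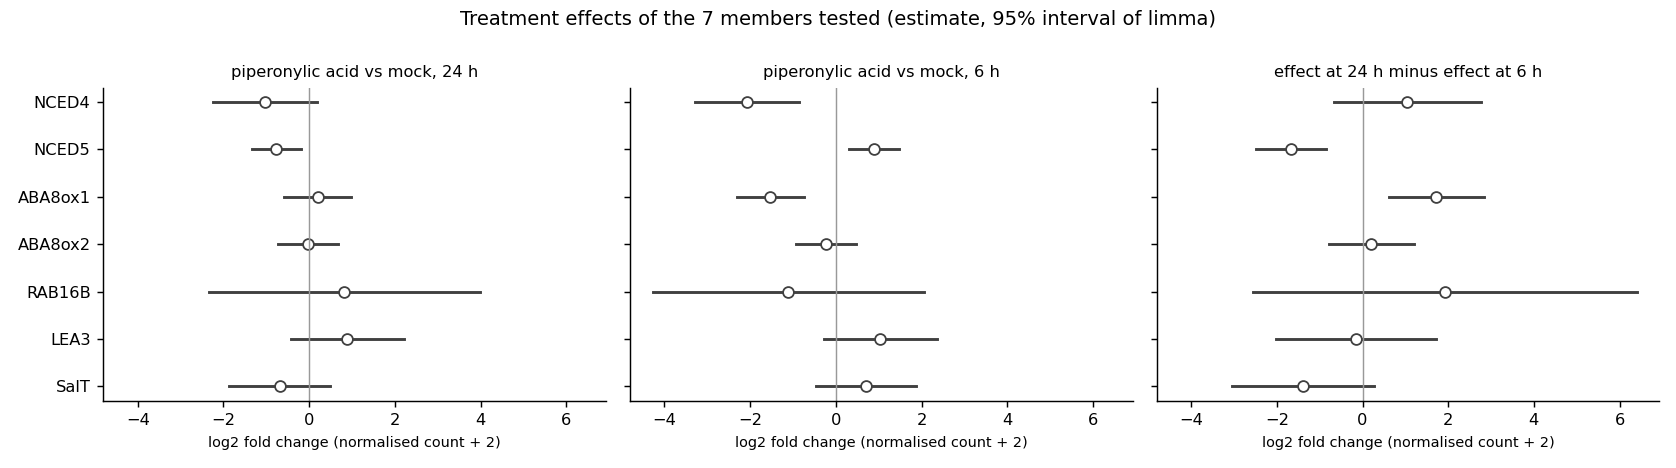
Log2 fold change of piperonylic acid against mock roots at 24 h and at 6 h, and the effect at 24 h minus that at 6 h, for the 7 members tested; points are limma estimates without a replicate block and lines 95% intervals. No point is filled, since none passed an adjusted p of 0.05 in that fit, and the interval of NCED5 lies below 0 at 24 h and above 0 at 6 h.

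The second question was how the members differed between the times within each treatment. The deposited table had been scaled separately within each time, which left a median log2 difference of 0.30 in mock roots and 0.29 in piperonylic acid roots between 24 h and 6 h. For these comparisons all 12 libraries were therefore scaled together, which brought the medians to 0.0075 and 0.0029. Time since the spray, age and time of day cannot be told apart in this design.

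ABA8ox1 fell in mock roots between the times. On the joint scale its level was 124 ± 15.1 (SD, n = 3) in mock roots at 24 h and 829 ± 205 (SD, n = 3) at 6 h, so the log2 fold change was -2.69 ± 0.35 (SE, limma adjusted p = 0.000599). In piperonylic acid roots it was 144 ± 27.3 (SD, n = 3) at 24 h and 308 ± 171 (SD, n = 3) at 6 h, a log2 fold change of -0.97 ± 0.35 (SE) that did not pass, at a limma adjusted p of 0.109. By edgeR this change in treated roots did not pass either, and by DESeq2 it was -1.10 and passed, at an adjusted p of 0.00233. Without treated replicate 1 of 6 h that change was -1.26 and passed, at 0.0383, and without treated replicate 3 of 6 h it was -0.55 at 0.129. The 6 h libraries lay above the 24 h libraries in both treatments. In order of level, mock roots at 6 h stood first and treated roots at 6 h second, followed by treated and mock roots at 24 h, which differed by less than their spread.

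NCED5 fell in treated roots between the times. On the joint scale its level was 23.9 ± 4.72 (SD, n = 3) in piperonylic acid roots at 24 h and 97.5 ± 22.7 (SD, n = 3) at 6 h, so the log2 fold change was -1.93 ± 0.27 (SE, limma adjusted p = 0.000131). In mock roots it was 42.04 ± 10.4 (SD, n = 3) at 24 h and 52.9 ± 18.9 (SD, n = 3) at 6 h, with a log2 fold change of -0.28 ± 0.27 (SE) and a limma adjusted p of 0.553. Treated roots at 6 h stood highest and treated roots at 24 h lowest, and both mock groups, which overlapped, lay between them.

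NCED4 had a joint-scale mean of 19.0 ± 6.14 (SD, n = 3) in mock roots at 24 h and 63.2 ± 24.9 (SD, n = 3) in mock roots at 6 h, its highest level. Its log2 fold change between 24 h and 6 h was -1.60 ± 0.55 (SE) in mock roots, with a limma adjusted p of 0.0700, and -0.52 ± 0.55 in piperonylic acid roots, at 0.621. The mock value passed with the replicate block by title numbers, at 0.0146, and by source-name numbers, at 0.0312, as well as by edgeR, at 0.0368, and DESeq2, at 0.0091. For these comparisons the blocks joined same-numbered libraries across the times, a pairing that was not examined. The mock value also passed without treated replicate 3 of 24 h, at 0.0140, and without treated replicate 3 of 6 h, at 0.0380. Over the refits that left out 1 library its limma adjusted p ran up to 0.209. The remaining groups had joint-scale means of 10.5 ± 10.3 in treated roots at 24 h and 14.5 ± 10.1 at 6 h (SD, n = 3 each), and with mock roots at 24 h they overlapped. ABA8ox2, RAB16B, LEA3 and SalT had log2 fold changes from -1.28 to 0.63 in mock roots and from -0.75 to 0.66 in treated roots, and none passed.

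In all, 1 of 7 tested members passed by limma in piperonylic acid roots and 1 in mock roots, both lower at 24 h. By edgeR 1 of 7 passed in piperonylic acid roots and 2 in mock roots, and by DESeq2 2 passed in each. Limma called 13.9% of all genes in treated roots, 7.12% as lower, and 17.2% in mock roots, 9.13% as lower, so the members' shares were near the background. Groups of the 2 times did not overlap for 2 of 7 in each treatment, against 31.8% and 33.1% of all genes.

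**Figure D3:**
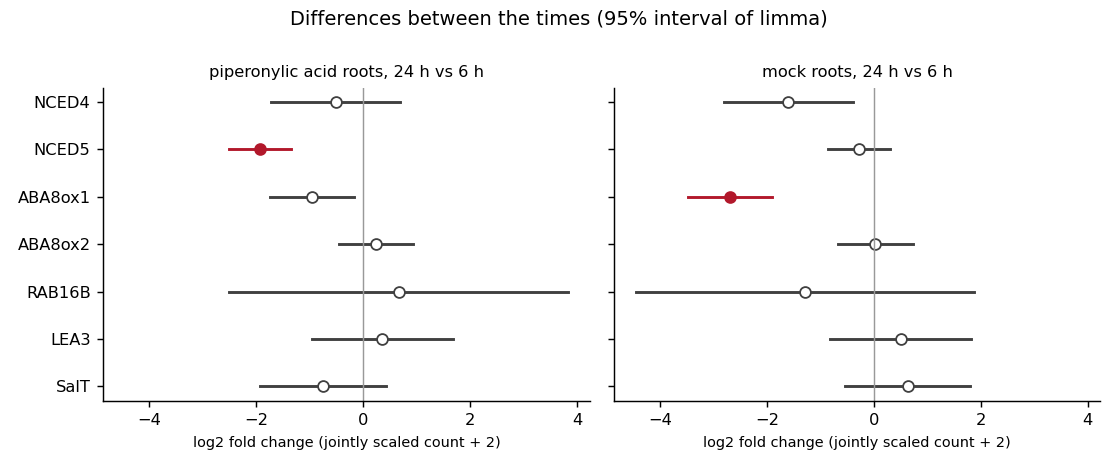
Log2 fold change of 24 h against 6 h in piperonylic acid roots and in mock roots on the joint scale, for the 7 members tested; points are limma estimates, lines 95% intervals, and filled points passed an adjusted p of 0.05. NCED5 passed in treated roots, at -1.93, and ABA8ox1 in mock roots, at -2.69.

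RAB16A, RAB16B and LEA3 varied together among libraries of the same group. Each library was expressed as its log2 deviation from the mean of its group, which removes time and treatment. Over the 12 libraries the Pearson correlation of these deviations was 0.89 between RAB16A and RAB16B, 0.79 between RAB16A and LEA3 and 0.72 between RAB16B and LEA3. RAB16B also varied with ABA8ox2, at 0.91, and not in the same way with SalT, at -0.15. For the dehydrin genes and LEA3 the libraries with high values were replicate 3 of treated roots at 24 h and replicate 1 of the other groups, except that LEA3 was not high in mock replicate 1 at 6 h. ABA8ox2 was high in the same libraries except mock replicate 1 at 24 h, where it was lowest of its group. Deviations within a group of 3 sum to 0, RAB16A rests on few reads, and the points share their libraries, so these values are a description. Between NCED5 and ABA8ox1 the correlation was -0.46, and between NCED4 and ABA8ox1 it was 0.41.

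**Figure D4:**
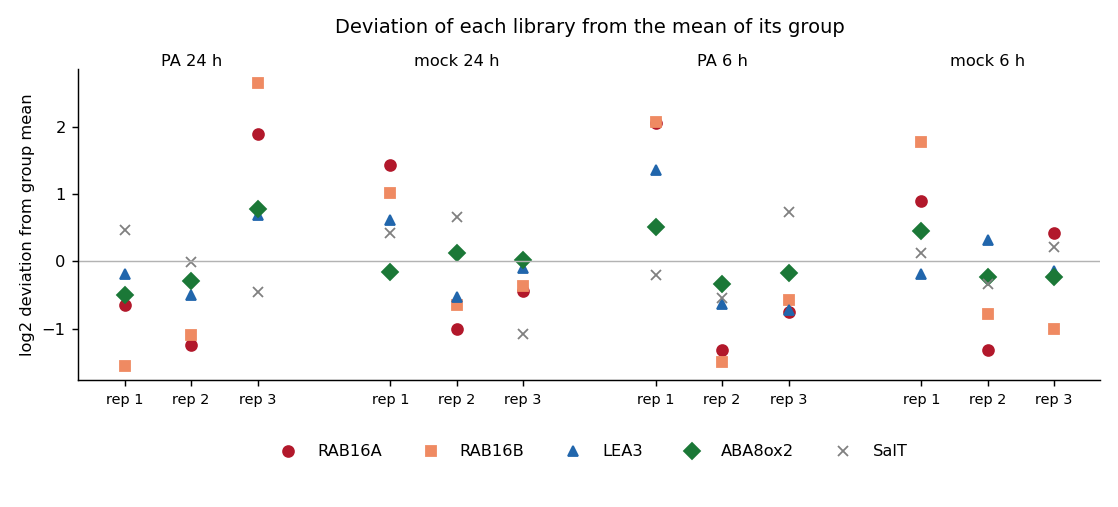
Log2 deviation of each of the 12 libraries from the mean of its group for RAB16A, RAB16B, LEA3, ABA8ox2 and SalT. RAB16A and RAB16B are both highest in replicate 3 of piperonylic acid roots at 24 h and in replicate 1 of the other 3 groups, while SalT is low in the first of these.

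For each tested member the most similar genes were sought by Pearson correlation over the 12 libraries after the mean of each time was subtracted. The 2 most similar genes had correlations of 0.98 for ABA8ox1, 0.95 for NCED4, 0.92 to 0.93 for NCED5, 0.91 to 0.92 for ABA8ox2, 0.92 to 0.94 for RAB16B, 0.92 to 0.93 for LEA3 and 0.90 to 0.97 for SalT. The gene nearest to ABA8ox1 was Os04g0492400. The second nearest to RAB16B, Os01g0705200, was on the list of other LEA and dehydrin genes, and the ninth nearest to ABA8ox2 was RAB16B. With 12 points and 19207 genes, high values arise easily.

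The rest of the ABA pathway was read from lists of identifiers written from recalled published loci, which no file could check, so a list's name is its intended content and its identifiers are given without names. At 24 h, 0 of 5 identifiers listed for other synthesis steps, 0 of 6 receptors, 0 of 6 PP2C phosphatases, 0 of 10 SnRK2 kinases, 0 of 6 transcription factors and 0 of 10 other LEA and dehydrin genes passed by limma. At an unadjusted p under 0.05 there was 1 receptor and no other identifier, against 6.11% of all genes, and edgeR and DESeq2 called 0 of these lists at 24 h. At 6 h 1 PP2C identifier fell and 1 SnRK2 identifier rose by limma, and 0 passed on the other 4 lists, on which 6 identifiers had an unadjusted limma p under 0.05. Over all genes at 6 h limma called 1.66%, and 14.8% had an unadjusted p under 0.05. On these 4 lists edgeR called 0 and DESeq2 1 at 6 h, on the PP2C list both called 2, and on the SnRK2 list edgeR called 1 and DESeq2 2. The PP2C identifier, Os01g0656200, had 70.8, 65.7 and 90.6 normalised counts in piperonylic acid roots against 146, 152 and 181 in mock roots, a log2 fold change of -1.07 ± 0.24 (SE, limma adjusted p = 0.0391). The SnRK2 identifier, Os04g0691100, had 270.4, 258 and 290.5 in piperonylic acid roots against 178, 216 and 170.1 in mock roots, a log2 fold change of 0.54 ± 0.12 (SE, limma adjusted p = 0.0391). In neither case did the groups overlap, as for 19.6% of all genes. Each of the 2 calls passed in 5 of the 12 refits that left out 1 library, with adjusted p up to 0.184 for Os01g0656200 and 0.195 for Os04g0691100, and neither passed with the block by source-name numbers, at 0.198 and 0.134.

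The PP2C list had 2 of 6 log2 fold changes below 0 at 24 h, with a median of 0.17, and 5 of 6 below 0 at 6 h, with a median of -0.53. The other LEA and dehydrin list had 4 of 10 below 0 at 24 h, with a median of 0.09, and 7 of 10 below 0 at 6 h, with a median of -0.42. Over all genes 51.9% were below 0 at 24 h and 48.8% at 6 h. The medians of the synthesis, receptor, SnRK2 and transcription factor lists lay between -0.04 and 0.19 at both times.

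Between the times, 1 of 6 PP2C identifiers was lower at 24 h than at 6 h in piperonylic acid roots, with a list median of -0.71, and 4 of 6 in mock roots, with a median of -1.60. Of the LEA and dehydrin list 2 of 10 were lower at 24 h in treated roots and 4 of 10 in mock roots. The SnRK2 list had 3 lower and 1 higher of 10 in treated roots, and 3 lower and 2 higher in mock roots. The receptor list had 1 lower and 3 higher of 6 in treated roots, and 1 lower and 2 higher in mock roots. The largest change among the SnRK2 identifiers, Os12g0586100, was -2.52 ± 0.13 (SE) in piperonylic acid roots and -2.44 ± 0.13 in mock roots, with limma adjusted p of 2.5e-09 and 5.0e-09. The transcription factor list had 1 lower and 1 higher of 6 in treated roots and 2 lower and 1 higher in mock roots, and the synthesis list had 0 of 5 lower in treated roots and 1 of 5 in mock roots. These counts were by limma, which called 13.9% of all genes in treated roots, 7.12% as lower at 24 h, and 17.2% in mock roots, 9.13% as lower.

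**Figure D5:**
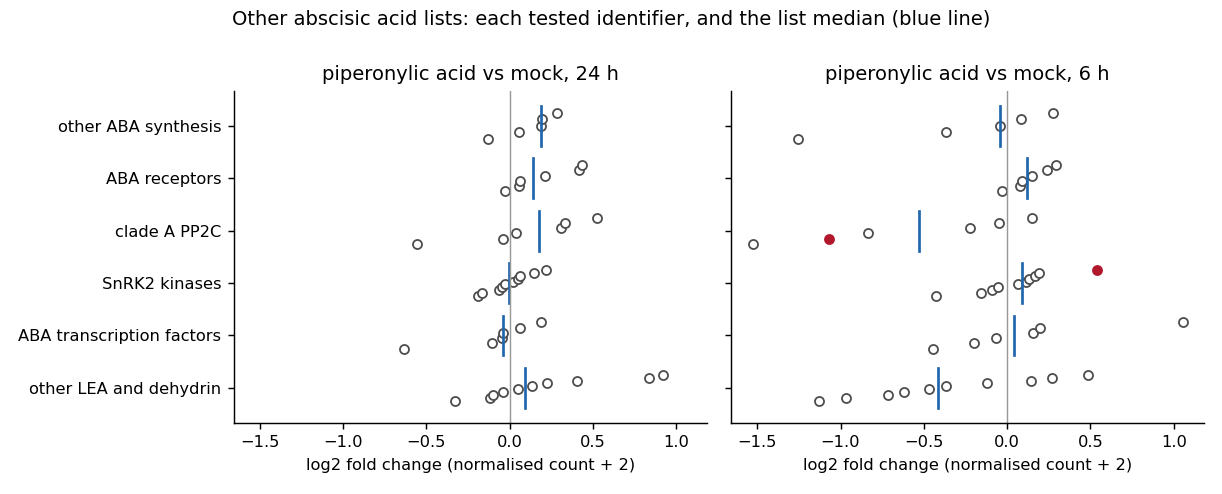
Log2 fold change of piperonylic acid against mock roots at 24 h and at 6 h for each tested identifier of the 6 other ABA lists; blue lines are list medians and filled red points passed a limma adjusted p of 0.05. The 2 filled points, at 6 h, are the PP2C identifier at -1.07 and the SnRK2 identifier at 0.54.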

How the data were processed

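The 12 root libraries were grouped by sample title, 3 for each treatment and time. The signal per gene in the deposited table was normalised by the authors. Per the submitters' processing notes, FastQC 0.11.8, Trimmomatic 0.38, STAR 2.6.1d and DESeq2 were used; how reads were counted, and on which genome build, is not given in the sources used here. Each value is a read count divided by 1 size factor per library: at least 99.98% of values above 0 were whole multiples of 1 read within 0.01. These factors were those of the median-of-ratios method applied to each time alone. Totals were 6302056 to 20301774 reads, which limits genes with few reads, and floors cover counting error only. The intervals of fold changes are from the limma fits and reflect the spread among libraries.

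Genes averaging 10 normalised counts or more, 19207 in all, were tested with limma 3.58.1 (R 4.3.3) on log2(normalised count + 2), with 4 group means, a mean-variance trend, robust moderation and Benjamini-Hochberg adjustment at 0.05. Fold changes of low genes are understated on that scale. Comparisons of the times used reads scaled over all 12 libraries. edgeR 4.0.16 and DESeq2 1.42.0 on the recovered reads, other pseudocounts and filters, sample weights, replicate blocks and the omission of each library were alternatives. The limma fit of the treatment comparisons, without a block, was also run on simulated data, and its outcome is not reported here. That run did not cover the comparisons of the times or the fits with a block.

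Members and lists were chosen with earlier results of these data known. All 10 members are named for piperonylic acid against mock roots, and only the tested members between the times. Of the other ABA lists, only identifiers past 0.05 by limma are named for piperonylic acid against mock roots. Between the times only Os12g0586100 is named from those lists, and the others that passed are given as counts. The reference table matched 1 of 35833 identifiers, and 0 members.

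The correlation of the deviations from the group means between same-numbered libraries was 0.305, 0.288 and 0.126 at 6 h. The title numbers were therefore taken to pair the libraries there. At 24 h it was -0.187, 0.0505 and 0.0212, and they were not taken to pair them. No label states a pairing, and this one was inferred from the same values that the blocked fits test. A pass with the block is therefore not separate support. For comparisons of treatments the blocks joined libraries within each time, at both times. For comparisons of the times they joined same-numbered libraries across times and treatments, a pairing that was not examined. The source names give 3 piperonylic acid libraries another number than their titles. By those numbers no treated library shares the block of mock replicate 3 at either time. That mock library therefore adds nothing to the treatment comparisons with that block.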

Additional observations from a re-analysis of the deposited data

Results flagged for a closer look

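The difference of NCED5 between piperonylic acid and mock roots had opposite signs at the 2 times, and it passed by limma at neither (adjusted p = 0.659 at 24 h and 0.106 at 6 h). Every treated library lay below every mock library at 24 h, and every treated library above every mock library at 6 h. The difference between the effects, 24 h minus 6 h, was -1.66 on the log2 scale. By limma it had an adjusted p of 0.0738 over all genes, and over the alternatives tried the adjusted p ran from 0.0196 to 0.325, with a value from -1.85 to -1.14. Of all genes tested, 1.46% were separated at both times in opposite directions.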

How the results depend on the processing

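Of 35 member results over 774 refits, 746 stayed on their side of the threshold, 28 newly passed and 0 were lost or reversed. Only ABA8ox1 in mock roots and NCED5 in treated roots, both between the times, were called in the limma fit without a block. No other result could be lost, so the 746 and the 0 say little about stability. In some refit 9 results that were not called changed sign. By limma with the replicate block by title numbers, the counts were 802 genes and 2 members at 6 h and 376 and 2 for the difference between the times. With the block by source-name numbers they were 0 genes at 24 h by limma, where 1330 had an unadjusted p under 0.05 and edgeR and DESeq2 without a block called 26 and 53, 65 genes and 1 member at 6 h and 25 genes for the difference, against 22, 319 and 106 genes and 0 members without a block. With sample quality weights they were 40 genes at 24 h, 686 genes and 3 members at 6 h and 239 genes and 1 member for the difference. With DESeq2 they were 53 genes at 24 h, 680 genes and 2 members at 6 h, 331 genes and 2 members for the difference and 2 members between the times in each treatment. With only the 6 h libraries, 152 genes passed at 6 h. Between the times in mock roots, 2 members passed in place of 1, ABA8ox1 and NCED4, with a pseudocount of 8, either replicate block, the weights and edgeR. On the values as deposited, 7187 genes passed between the times in treated roots and 7943 in mock roots, against 2677 and 3310 on the joint scale. Leaving out each library in turn gave 3 to 30 genes and 0 members at 24 h, 4 to 741 genes and 0 to 2 members at 6 h, 38 to 471 genes and 0 to 2 members for the difference, 1899 to 2875 genes and 1 to 2 members between the times in treated roots and 2462 to 3345 genes and 1 to 2 members in mock roots. At 6 h the lowest count was without mock replicate 3, and 2 members passed without treated replicate 3. Apart from the calls given with the members, the block by title numbers changed no call of a member between treatments. Genes with few reads, such as ABA8ox3 and RAB16A, are limited by depth.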
